A study of Mus musculus with 34 samples.

Results

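Myt1l, its paralogs Myt1 and St18, and the repressor genes Sin3a, Sin3b, Hdac1, Hdac2, Rcor1, Kdm1a and Rest were followed in 3 brain regions of mice heterozygous for a Myt1l mutation and of wild-type mice. The 10 genes were chosen by symbol, and 10 of the 18548 genes in the deposited table carry those symbols. RNA was sequenced from prefrontal cortex (PFC, 5 heterozygote and 6 wild-type libraries), hippocampus (Hip, 5 and 6) and striatum (Str, 6 and 6), 34 libraries in all. The mice were untreated C57BL/6J males, 56 days old. The nature of the Myt1l mutation is not in the labels, nor is whether each library is its own animal, so p-values measure only the spread between libraries, which may be partly technical. Genotypes throughout are those of the labels.

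The MYT1 family are zinc finger transcription factors of the nervous system. Myt1l is expressed in nearly all neurons and is known for repressing genes of other lineages, Myt1 is known from neural progenitors and the oligodendrocyte lineage, and St18, also called Myt3, is the remaining member. The family recruits SIN3 scaffolds, which carry the histone deacetylases HDAC1 and HDAC2. REST, a zinc finger repressor that keeps neuronal genes off in other cells by binding RE1 elements, uses the same SIN3 scaffolds and also the CoREST complex, in which RCOR1 (CoREST) holds KDM1A (LSD1), a histone demethylase.

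RefSeq promoters (GRCm38.p6, 250 bases before to 50 bases after a start site) were matched by symbol for 7 of the 10 genes, 14 promoters in all. Hdac1, Rest and St18 had no entry in the promoter table used. Promoters of Hdac2 and Myt1l are shown because Hdac2 had the highest correlation with Myt1l of the corepressor genes in Str. That relation did not pass after adjustment. Myt1l had several promoters, and the one shown is the only one of them with GGACAGC. The Myt1 promoter is shown because it was the only one of the 14 with the family's core motif AAAGTTT. Capitals mark matches to AAAGTTT or GGACAGC, and each is the plus strand.

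Hdac2, chr10:36974294-36974593: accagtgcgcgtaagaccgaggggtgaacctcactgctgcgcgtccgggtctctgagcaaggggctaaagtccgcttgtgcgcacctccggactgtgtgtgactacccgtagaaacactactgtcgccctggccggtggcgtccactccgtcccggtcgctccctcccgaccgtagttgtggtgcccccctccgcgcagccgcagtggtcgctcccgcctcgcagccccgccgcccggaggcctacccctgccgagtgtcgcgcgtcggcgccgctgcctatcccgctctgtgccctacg

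Myt1l, chr12:29534655-29534954: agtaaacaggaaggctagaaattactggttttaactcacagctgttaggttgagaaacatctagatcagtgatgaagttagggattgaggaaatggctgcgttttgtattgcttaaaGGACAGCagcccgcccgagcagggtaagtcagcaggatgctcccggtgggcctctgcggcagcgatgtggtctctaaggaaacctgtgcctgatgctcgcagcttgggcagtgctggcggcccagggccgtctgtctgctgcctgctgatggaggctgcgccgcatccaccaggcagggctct

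Myt1, chr2:181796057-181796356: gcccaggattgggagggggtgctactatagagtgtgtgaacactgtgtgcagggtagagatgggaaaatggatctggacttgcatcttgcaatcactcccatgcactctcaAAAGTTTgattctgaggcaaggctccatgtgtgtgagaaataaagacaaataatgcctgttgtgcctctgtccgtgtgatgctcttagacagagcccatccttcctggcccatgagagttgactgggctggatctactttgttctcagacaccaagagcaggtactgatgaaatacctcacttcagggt

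Both strands of all 14 promoters were searched. AAAGTTT occurred in 4.74% of the 32851 promoters of this length in the table, and among these genes only in the Myt1 promoter above, at -139 from its start site. The shorter AAGTTT, which lies within AAAGTTT, was in 14.4% of all promoters and in 3 promoters of Myt1 and Sin3b. GGACAGC, a stretch from the right side of the RE1 element, was in 6.56% of all promoters and in the Myt1l promoter above, at -133. TTCAGCACC, from the left side of RE1, was in 0.371% of all promoters and in none of the 14. The Hdac2 window held 69.7% G and C and 36 CpG dinucleotides, the Myt1l window shown 55.7% and 11, and the Myt1 window shown 48.7% and 1. The medians over all promoters were 52.7% and 7. The other Myt1l windows held 40.0% to 59.3% G and C and 4 to 13 CpG, lowest in the window at the start of the gene. The other Myt1 windows held 53.7% and 39.3%, with 2 and 1 CpG. A match is a letter match and does not show binding.

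The values are normalized counts as the authors scaled them, and their sums were 25786041 to 29798959 per library. The step between low values put the depth at an estimated 24019000 to 39178000 reads per library. Most markers of the labelled regions were highest where the labels place them. Tbr1 averaged 3780 normalized counts in PFC, 1294 in Hip and 544.5 in Str, Dsp 3.3, 1611 and 53.7, and Drd2 84.3, 57.9 and 2591. The exceptions were the cortical marker Fezf2 (837.4, 942.1 and 94.9) and the hippocampal marker Wfs1 (2798, 3425 and 4624). The summed cortical neuron list ranged from 3029 to 13319 normalized counts in Str heterozygotes and from 3325 to 14063 in Str wild type, and was highest in heterozygotes 1 and 2 and wild types 1, 4 and 5. The choroid plexus list had a mean log2 of 6.39 in Hip heterozygote 1, 6.71 in Hip wild type 6 and 6.05 in Str heterozygote 1, against 9.21 to 11.08 in the other Hip and Str libraries. The column code 31-67M stands on Hip and Str libraries labelled heterozygote (number 1 in each) and on a PFC library labelled wild type (number 6). Some of the results that use these 3 libraries are also given without them.

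The mean of Myt1l RNA was not lower in heterozygotes than in wild type in any region. Myt1l (ENSMUSG00000061911, GRCm38 chromosome 12, 29528384 to 29923213, plus strand) had 6462, 6954, 6388, 7525 and 6772 normalized counts in the 5 PFC heterozygotes, against 5578 to 7992 with a median of 6602 in PFC wild type. The PFC groups overlapped throughout. In Hip the heterozygotes had 6669, 6674, 6941, 7550 and 6645, against 5552 to 7186 with a median of 6107 in wild type. All 5 Hip heterozygotes stood above the wild-type mean, and wild type 6 lay within their range. In Str the heterozygotes ranged from 7064 to 9505 with a median of 7984, against 6923 to 8275 with a median of 7740 in wild type.

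On the log2(value + 1) scale the Myt1l difference was 0.04 in PFC (95% interval -0.12 to 0.21, adjusted p = 0.988), 0.15 in Hip (0.03 to 0.28, adjusted p = 0.719) and 0.08 in Str (-0.07 to 0.24, adjusted p = 0.915), by limma with Benjamini-Hochberg adjustment over all genes. A log2 difference of -1, which loss of the RNA of 1 of 2 copies would give, lay below all 3 intervals. Averaged over the regions the difference was 0.09 (SE 0.05, adjusted p = 0.529, limma). Without the libraries of code 31-67M the Hip difference was 0.165 (adjusted p = 0.544, limma), and with the cortical neuron list as a covariate it was 0.0566, where that list had a mean log2 of 10.44 in Hip heterozygotes and 10.58 in Hip wild type. Within the codes beginning with 35 the Myt1l difference was 0.138 in PFC, 0.213 in Hip and -0.0117 in Str (adjusted p = 0.954, 0.704 and 0.974, limma). With the replicate number as a block it was 0.0983, 0.196 and 0.0837 (adjusted p = 0.904, 0.405 and 0.947, limma). The allele is not described, so total Myt1l RNA does not check the genotype labels. Gm20208 lies antisense to Myt1l and averaged 22.6 normalized counts, and the counting is not stated to use strand.

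**Figure D1:**
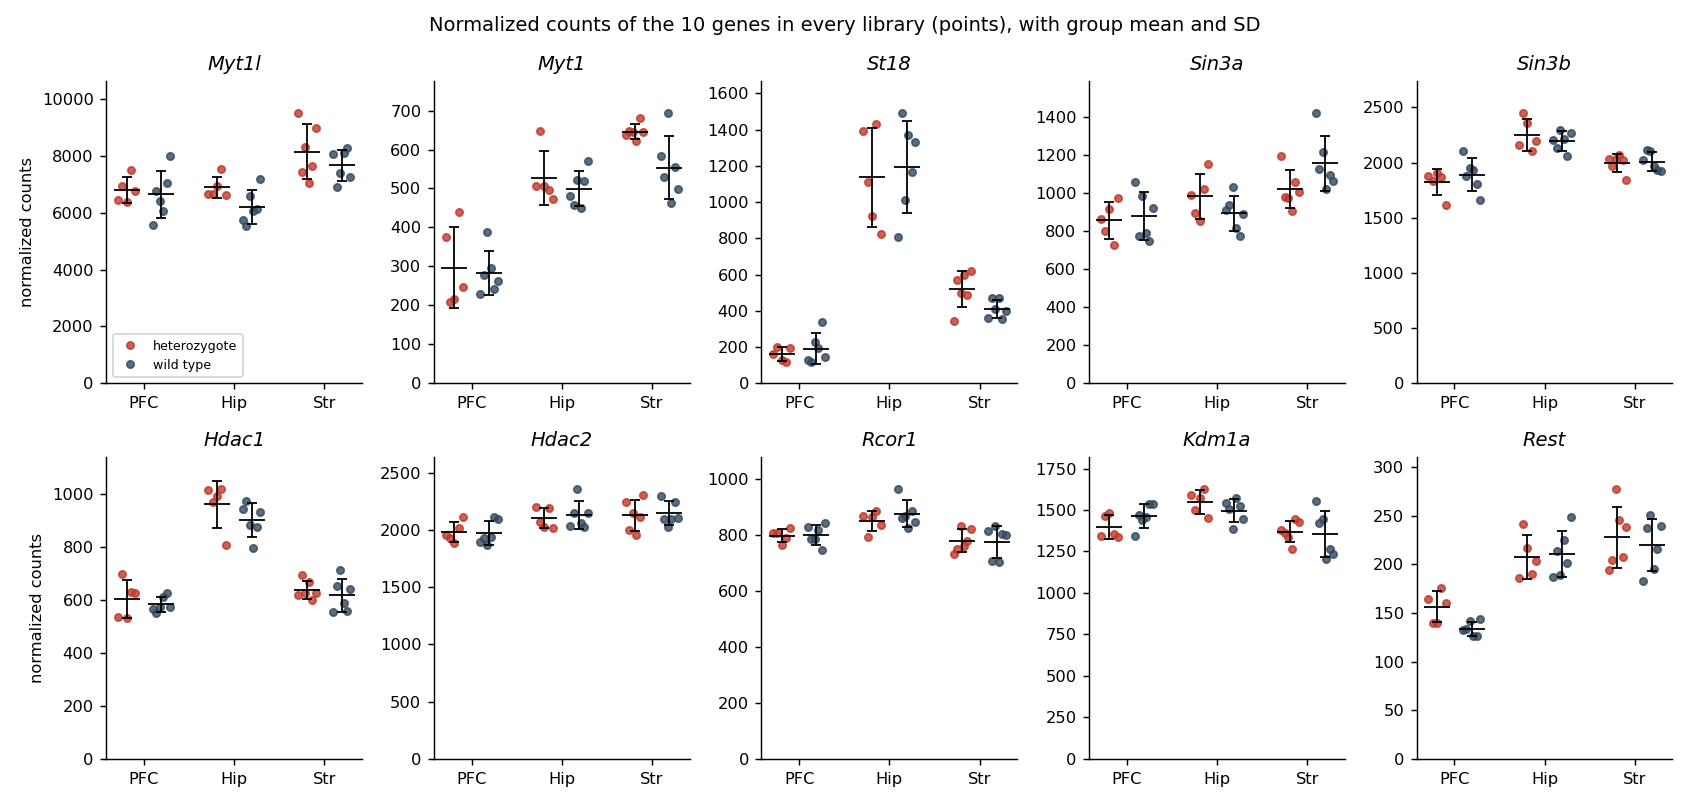
Normalized counts (y axis, from 0) of each of the 10 genes in every library, heterozygote left of wild type in each region, with the group mean and SD as black lines. St18 averaged 1135 in Hip heterozygotes and 1195 in Hip wild type and at most 338.3 in any PFC library.

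None of the 10 genes passed the test for heterozygote against wild type in any region. The 10 genes gave 30 tests, and 0 passed at an adjusted p of 0.05 (limma), where 0% of the 16667 genes tested in PFC, 0% of 16820 in Hip and 0% of 17054 in Str were called. Over all genes, 833, 1145 and 1004 had an unadjusted p under 0.05 in PFC, Hip and Str. Among the 30 tests 4 had one: Myt1l in Hip, and Myt1, St18 and Sin3a in Str. No gene had groups that did not overlap, a pattern seen in 0.462% of genes in PFC, 0.678% in Hip and 0.399% in Str.

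Both paralogs had higher means in Str heterozygotes, without passing the test. Myt1 (ENSMUSG00000010505, GRCm38 chromosome 2, 181763332 to 181827797, plus strand) ranged from 620.9 to 681.8 normalized counts in Str heterozygotes, with a median of 644.6, against 461.5 to 692.7 with a median of 541.9 in Str wild type. The 6 heterozygotes lay close together and all above the wild-type mean, while 1 wild type (692.7) was above every heterozygote. The log2 difference was 0.24 (SE 0.08, adjusted p = 0.753, limma). St18 (ENSMUSG00000033740, GRCm38 chromosome 1, 6487231 to 6860940, plus strand) ranged from 344.2 to 618.1 in Str heterozygotes with a median of 533.4, against 357.0 to 469.8 with a median of 406.1 in Str wild type. Of the 6 heterozygotes, 5 were above every wild type and heterozygote 1 was below them all. The log2 difference was 0.32 (SE 0.13, adjusted p = 0.807, limma). Heterozygote 1 carries the code 31-67M, and without it the St18 difference was 0.43 (adjusted p = 0.322).

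The cell content of the Str libraries was set beside these values. The mature oligodendrocyte list had a mean log2 of 12.07 ± 0.08 in Str heterozygotes and 12.01 ± 0.10 in wild type (SD, n = 6 each), and the precursor list 9.92 ± 0.04 and 9.89 ± 0.08. The differentiating list had 9.38 ± 0.10 in Str heterozygotes and 9.26 ± 0.08 in wild type. Of its 7 genes 7 had a higher mean log2 in heterozygotes, where 48.4% of all genes were higher. Its median difference was 0.10, with 0 genes called. The lists summed to 276479 to 325906 normalized counts in heterozygotes against 248580 to 303029 in wild type for mature cells, 12023 to 12825 against 11665 to 13281 for precursors, and 10654 to 11231 against 9552 to 11349 for differentiating cells, with no marker at 0. With the mature list as a covariate the differences were 0.27 for Myt1 and 0.26 for St18, with the precursor list 0.25 and 0.24, with the differentiating list 0.33 and 0.387, with the neuron list 0.22 and 0.25, and with the cortical neuron list 0.23 and 0.29. Within the codes beginning with 35 they were 0.23 and 0.34. Other marker lists also leaned to 1 side in Str. Higher in heterozygotes were 6 of 6 thalamus, 0 of 9 microglia, 0 of 6 choroid plexus, 0 of 5 meningeal fibroblast and 1 of 8 striatal projection neuron genes. Of these genes 0 were called. In these bulk samples, a change in the number of cells of a type and a change in RNA per cell cannot be told apart.

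In PFC and Hip the paralogs did not pass the test either. Myt1 had 376.0, 208.0, 216.1, 438.6 and 245.9 normalized counts in PFC heterozygotes, against 229.1 to 387.6 with a median of 270.5 in PFC wild type. Heterozygotes 1 and 4 were high, the other 3 low. The log2 difference was 0.03 (95% interval -0.39 to 0.44). St18 had 162.1, 199.3, 129.6, 118.1 and 194.5 in PFC heterozygotes, against 117.0 to 338.3 with a median of 169.3 in wild type, a difference of -0.18 (-0.71 to 0.36). In Hip the difference was 0.07 (-0.12 to 0.25) for Myt1 and -0.08 (-0.50 to 0.34) for St18. Intervals this wide leave room for changes in the paralogs in PFC and in St18 in Hip that the libraries could not show. The genotype difference of St18 between PFC and Str, -0.49, did not pass (SE 0.29, adjusted p = 0.999, limma interaction). For Myt1 it was -0.21 between PFC and Str (adjusted p = 0.999) and -0.17 between Hip and Str (adjusted p = 1), and 0% of genes were called in any of the 3 interaction tests.

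Among the corepressor genes the largest genotype differences were those of Rest in PFC (0.22) and Sin3a in Str (-0.18), and none passed. SIN3A and SIN3B are the scaffolds of the SIN3 complexes. Sin3a (ENSMUSG00000042557, GRCm38 chromosome 9, 57072040 to 57128366, plus strand) ranged from 906.6 to 1197 normalized counts in Str heterozygotes with a median of 993.2, against 1021 to 1421 with a median of 1112 in Str wild type. Most heterozygotes were below most wild types, with overlap. The log2 difference was -0.18 in Str (SE 0.08, adjusted p = 0.834, limma) and 0.13 in Hip (SE 0.08, adjusted p = 0.807). The Hip minus Str difference of these effects, 0.31, had the smallest p of the 30 interaction tests (SE 0.13, adjusted p = 1, limma). With the mature oligodendrocyte list as a covariate the Str difference was -0.11. Sin3b (ENSMUSG00000031622, GRCm38 chromosome 8, 72723285 to 72758201, plus strand) differed by -0.05 in PFC, 0.04 in Hip and -0.01 in Str.

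For the deacetylases, Hdac1 (ENSMUSG00000028800, GRCm38 chromosome 4, 129516104 to 129542713, minus strand) differed by 0.04 in PFC, 0.09 in Hip and 0.05 in Str. Hdac2 (ENSMUSG00000019777, GRCm38 chromosome 10, 36974544 to 37001889, plus strand) differed by 0.01, -0.02 and -0.01, and its 95% intervals lay between -0.12 and 0.11 in all 3 regions. The log ratio of Hdac1 to Hdac2 averaged -1.13 ± 0.11 in Hip heterozygotes and -1.24 ± 0.13 in Hip wild type (SD, n = 5 and 6), a difference of 0.11 (exact permutation p = 0.165, 2-sided). The ratio of Sin3a to Sin3b averaged -0.97 ± 0.15 in Str heterozygotes and -0.80 ± 0.16 in Str wild type (SD, n = 6 each), a difference of -0.17 (exact permutation p = 0.0823, 2-sided, adjusted p = 0.67). This was the smallest p of 12 ratio tests, among them Myt1l over each paralog, and 0 of the 12 passed or had an unadjusted p under 0.05. The smallest p these exact tests allow is 0.00216.

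Of the CoREST pair, Rcor1 (ENSMUSG00000037896, GRCm38 chromosome 12, 111039351 to 111115901, plus strand) differed by -0.01 in PFC, -0.04 in Hip and 0.01 in Str. Kdm1a (ENSMUSG00000036940, GRCm38 chromosome 4, 136550540 to 136602723, minus strand) differed by -0.07, 0.05 and 0.02. Rest (ENSMUSG00000029249, GRCm38 chromosome 5, 77265491 to 77286432, plus strand) had 164.8, 139.8, 140.1, 176.1 and 160.2 normalized counts in PFC heterozygotes, against 126.5 to 143.7 with a median of 132.6 in PFC wild type. All 5 heterozygotes were above the wild-type mean, and the 2 lowest lay within the wild-type range. The log2 difference was 0.22 (95% interval -0.000869 to 0.434, adjusted p = 0.977, limma). Rest differed by -0.02 in Hip and 0.05 in Str. Averaged over the regions, 16 of 17051 genes (0.0938%) were called and 0 of the 10 were among them.

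**Figure D2:**
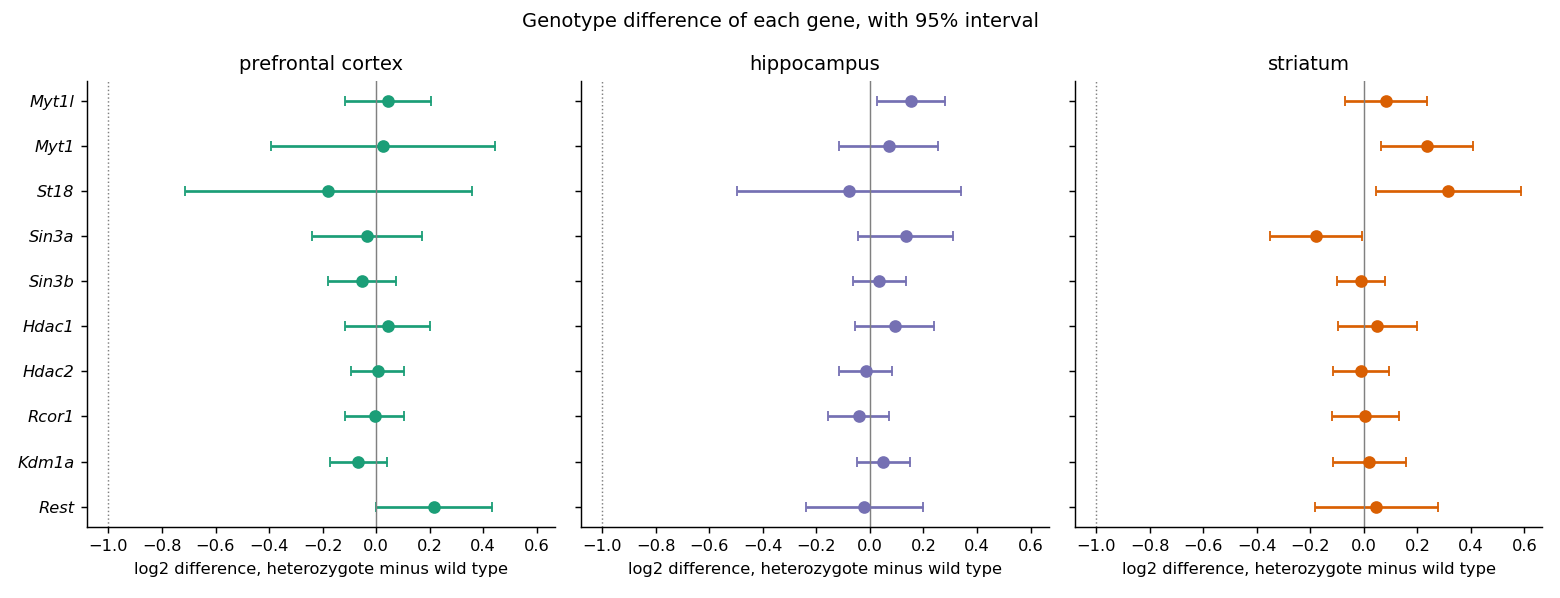
Log2 difference, heterozygote minus wild type (x axis), of each gene in PFC, Hip and Str from limma, with bars for the 95% interval, a grey line at 0 and a dotted line at -1. The Myt1l intervals lie between -0.12 and 0.28, far from the dotted line, and the widest are those of St18 in PFC and Hip and of Myt1 in PFC.

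The regions differed far more than the genotypes, above all for St18. In wild type St18 ranged from 117.0 to 338.3 normalized counts in PFC, 804.4 to 1489 in Hip and 357.0 to 469.8 in Str, with no overlap between regions. The heterozygotes gave 118.1 to 199.3, 823.2 to 1430 and 344.2 to 618.1, again without overlap. In wild type the log2 difference was -2.71 for PFC against Hip (SE 0.21, adjusted p = 3.47e-09), -1.20 for PFC against Str (SE 0.21, adjusted p = 8.03e-05) and 1.51 for Hip against Str (SE 0.21, adjusted p = 6.91e-06), by limma over all genes. Among the 18 wild-type libraries 46.3%, 56.6% and 47.5% of genes were called in these comparisons, and 29%, 35.8% and 29.8% had groups that did not overlap. Against that background 5, 6 and 7 of the 10 genes were called. Column codes recur across regions, 10 of 12 in all 3, and this fit took the libraries as independent. The correlation within a code was 0.0241 in wild type.

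Myt1 was low in PFC. It averaged 282.4 ± 56.9 normalized counts in PFC, 499.4 ± 45.3 in Hip and 553.0 ± 80.5 in Str wild type (SD, n = 6 each), and 296.9 ± 104.1, 525.7 ± 69.4 and 646.1 ± 19.9 in heterozygotes (SD, n = 5, 5 and 6). In wild type the log2 difference was -0.84 for PFC against Hip (SE 0.11, adjusted p = 1.49e-06) and -0.98 for PFC against Str (SE 0.11, adjusted p = 9.66e-08, limma), while Hip against Str gave -0.14 (adjusted p = 0.321). Myt1l was highest in Str, with differences of -0.21 for PFC against Str (SE 0.07, adjusted p = 0.0195) and -0.31 for Hip against Str (SE 0.07, adjusted p = 0.00183). PFC against Hip was 0.09 (adjusted p = 0.327). Without PFC wild type 1 the PFC against Str difference of Myt1l was -0.16 (adjusted p = 0.0561).

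By mean log2 in wild type, Myt1 stood in the regional order of the mature and precursor oligodendrocyte lists. St18 stood in that of the differentiating list, whose genes were split, and other lists shared both orders. The mature oligodendrocyte list had a mean log2 of 10.94 in PFC, 11.39 in Hip and 12.01 in Str wild type, the precursor list 9.33, 9.43 and 9.89, and the differentiating list 9.09, 9.33 and 9.26. St18 stood at 7.49, 10.19 and 8.68, and Myt1 at 8.12, 8.96 and 9.10. In Hip against Str 2 of the 7 differentiating genes were called higher and 3 lower, with a median of -0.14. In wild type the differentiating list summed to 7847 to 9274 normalized counts in Hip and 9552 to 11349 in Str. Its mean log2 in heterozygotes was 9.39 in Hip and 9.38 in Str. The neuron list fell in the opposite order to the mature list, at 13.84, 13.54 and 13.29. The order of Myt1 was also that of the thalamus list (8.02, 8.37 and 9.71). The newborn neuron and dividing cell (6.41, 7.37 and 7.52) and choroid plexus (4.27, 9.48 and 9.99) lists shared it too. The order of St18 was also that of the hippocampal neuron (6.83, 11.06 and 8.39) and meningeal fibroblast (8.39, 9.41 and 8.47) lists. With 3 regions no test of these orders was made.

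**Figure D3:**
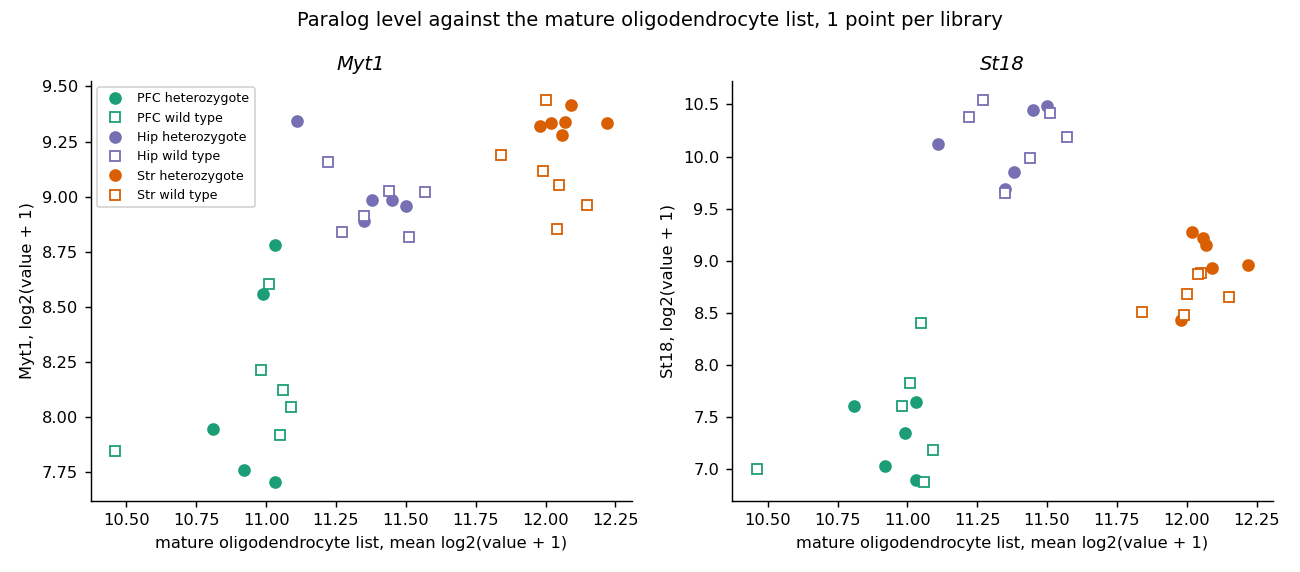
Myt1 (left) and St18 (right) on the log2(value + 1) scale against the mean log2 of the mature oligodendrocyte list, 1 point per library, filled for heterozygotes and open for wild type, coloured by region. St18 is highest in Hip while the list is highest in Str, and no relation within a region passed the test.

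Among the corepressors, Hdac1 and Rest carried the largest regional differences. Hdac1 averaged 582.9 ± 29.4 normalized counts in PFC, 899.5 ± 63.9 in Hip and 617.4 ± 62.0 in Str wild type (SD, n = 6 each), and the Hip libraries lay above all others. The log2 difference was -0.62 for PFC against Hip (SE 0.07, adjusted p = 5.11e-08) and 0.55 for Hip against Str (SE 0.07, adjusted p = 3.16e-07, limma). Hdac2 was flatter, at 1972 ± 105, 2127 ± 124 and 2144 ± 105. Its difference for PFC against Str was -0.12 (adjusted p = 0.0294), and it did not pass without PFC wild type 1, 2, 3 or 4 or without Str wild type 1 or 5 (-0.116 to -0.100, adjusted p up to 0.0755). Rest averaged 133.9 ± 7.3 in PFC, 210.7 ± 23.6 in Hip and 220.2 ± 26.9 in Str wild type, and no PFC wild type reached the lowest Hip or Str value. The difference was -0.64 for PFC against Hip (adjusted p = 6.5e-06) and -0.71 for PFC against Str (adjusted p = 1.22e-06, limma).

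Sin3a was highest in Str, with -0.40 for PFC against Str (adjusted p = 0.000869) and -0.37 for Hip against Str (adjusted p = 0.00217, limma). Sin3b was highest in Hip, with -0.22 for PFC against Hip (adjusted p = 0.000654) and 0.13 for Hip against Str (adjusted p = 0.0327). Rcor1 and Kdm1a passed only for Hip against Str, with 0.17 (adjusted p = 0.0114) and 0.15 (adjusted p = 0.0416). Scaling to equal library totals moved the median of all genes from near 0 to -0.10, -0.15 and -0.06 in the 3 comparisons, and the calls of Sin3b (0.08), Rcor1 (0.12) and Kdm1a (0.09) for Hip against Str were then lost, which left 4 called members in place of 7. The same scaling gave 7 called members in place of 5 for PFC against Hip, with Hdac2 (-0.199) and Rcor1 (-0.216) added, and 8 in place of 6 for PFC against Str, with Sin3b (-0.235) and Hdac1 (-0.221) added. Kdm1a also did not pass with the replicate number as a block (0.147, adjusted p = 0.068). Leaving out Hip wild type 1, 3, 4 or 6 or Str wild type 4, 5 or 6 lost the Sin3b call, and leaving out Hip wild type 1, 2, 4 or 5 or Str wild type 4, 5 or 6 lost that of Kdm1a.

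**Figure D4:**
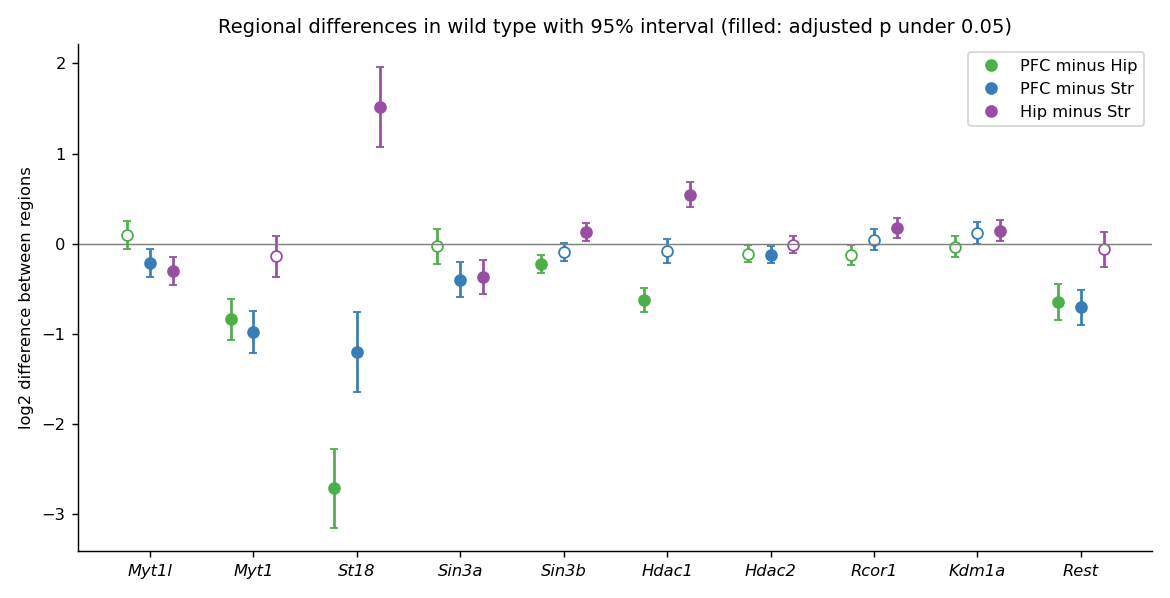
Log2 differences between regions in the 18 wild-type libraries (y axis) for each gene, with 95% intervals from limma and filled points where the adjusted p was under 0.05. St18 spans -2.71 to 1.51, and Myt1, Hdac1 and Rest are the other genes with differences beyond 0.5.

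Levels between genes were compared per kilobase of the union of their exons. In PFC wild type Myt1l stood at 474.4 normalized counts per kilobase and Hdac2 at 440.7, followed by Kdm1a at 282.5, Sin3b at 256.8, Hdac1 at 169.2, Sin3a at 163.6 and Rcor1 at 141.2. Myt1 at 39.3, St18 at 29.6 and Rest at 18.5 were the lowest. In Hip wild type St18 stood at 184.8, above Sin3a at 166.2, Rcor1 at 154.2 and Myt1 at 69.4. Hdac2 (475.5) led Myt1l (443.4) in Hip on this scale, and Myt1l (863.1) led Hdac2 (654.6) per kilobase of the longest coding transcript, so the order of these genes depends on the length used.

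The genes also differed in how far their libraries spread within a group. St18 had a residual SD of 0.367 on the log2 scale after region and genotype, larger than 97.7% of the 5027 genes within 2-fold of its level. Myt1 followed with 0.249 (89.3% of 4753 genes), Myt1l with 0.135 (87.6% of 1463) and Sin3a with 0.167 (83.0% of 5201). Rcor1 was among the steadiest, with 0.076 (7.9% of 5180). Hdac2 had 0.075 (26.7% of 4259), Rest 0.156 (21.6% of 3502), Sin3b 0.082, Kdm1a 0.089 and Hdac1 0.120.

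Relations between genes were measured within a region on log2 values centred on the genotype group, with exact permutation within the groups, 2-sided. None of 18 relations of Myt1 and St18 to the mature, precursor and differentiating oligodendrocyte lists passed after adjustment. Myt1 had r = 0.32 with the mature list in PFC (n = 11, exact p = 0.22), -0.57 in Hip (n = 11, exact p = 0.0963) and -0.34 in Str (n = 12, exact p = 0.359). St18 had 0.24 in PFC (n = 11, exact p = 0.626), 0.08 in Hip (n = 11, exact p = 0.81) and 0.32 in Str (n = 12, exact p = 0.287). By r, the only relation with an unadjusted p under 0.05 was that of St18 with the precursor list in Str (r = 0.68, exact p = 0.00525, adjusted p = 0.0945, rho = 0.53, exact p = 0.0438, n = 12). Without the 2 libraries farthest from the median of the list r was 0.77 (exact p = 0.0823), and without Str heterozygote 1 it was 0.64 (exact p = 0.0775). By rho, Myt1 rose with the precursor list in PFC (0.58, exact p = 0.0466) and fell with the differentiating list in Str (-0.58, exact p = 0.0471). Neither passed (adjusted p = 0.282 for each). With the differentiating list in Hip Myt1 had r = -0.70 (exact p = 0.0759).

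Of the corepressor genes, Hdac2 had the highest r with Myt1l in each region, and none of the 3 values passed after adjustment. In Str, heterozygotes 1 and 6 were the highest heterozygotes for Myt1l (9505 and 9006 normalized counts) and for Hdac2 (2245 and 2301), and heterozygote 4 was the lowest for both (7064 and 1952). The relation had r = 0.84 in Str (n = 12, exact p = 0.00339, rho = 0.80, exact p = 0.00692), 0.68 in PFC (n = 11, exact p = 0.0388, rho = 0.58, exact p = 0.0915) and 0.43 in Hip (n = 11, exact p = 0.256, rho = 0.36, exact p = 0.315). Without the 2 libraries farthest from the median of Myt1l, r was 0.74 in Str (exact p = 0.0325) and 0.53 in PFC (exact p = 0.18). The adjusted p over 21 relations was 0.0713 in Str and 0.204 in PFC, so neither passed. Without Str wild type 4 the Str relation had r = 0.896 (adjusted p = 0.0328), and without the 31-67M libraries r was 0.832 in Str and 0.549 in PFC (exact p = 0.0056 and 0.138).

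**Figure D5:**
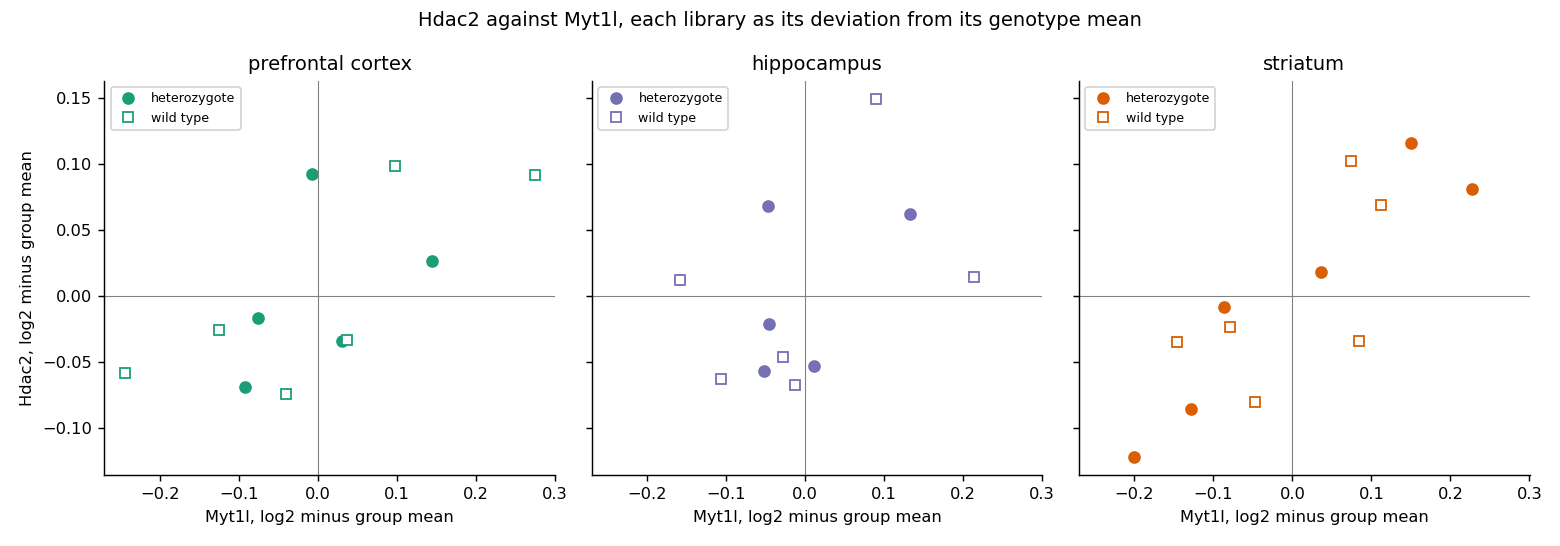
Hdac2 (y axis) against Myt1l (x axis), each library as its log2 deviation from the mean of its genotype group, filled for heterozygotes and open for wild type. The points rise together in Str (r = 0.84) and PFC (r = 0.68) and less clearly in Hip (r = 0.43).

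Other corepressor genes gave weaker or opposite relations to Myt1l. Sin3b had r = -0.72 in PFC (n = 11, exact p = 0.0251, adjusted p = 0.176, rho = -0.72, exact p = 0.0278), -0.26 without the 2 farthest libraries (exact p = 0.533), and -0.52 without the 31-67M library (exact p = 0.136). Leaving out PFC heterozygote 4 or 5 gave -0.84 and -0.90 (adjusted p = 0.0371 and 0.0356). Sin3b was at 0.12 in Hip and -0.43 in Str. Hdac1 had r = -0.60 in Str (n = 12, exact p = 0.0224, adjusted p = 0.176, rho = -0.55, exact p = 0.0559), 0.30 in PFC (n = 11, exact p = 0.265) and 0.07 in Hip (n = 11, exact p = 0.858). Sin3a, Rcor1, Kdm1a and Rest gave r between -0.44 and 0.52 in the 3 regions, none with an unadjusted p under 0.05. In all, 4 of the 21 relations had an unadjusted p under 0.05 and 0 passed. The share of all genes with relations to Myt1l this strong within a region was not counted. These values therefore cannot be read as particular to corepressor genes. Over the 34 libraries Grin2b, Wdr47 and Jak1 had r = 0.82 to 0.83 with Myt1l, above Hdac2 at 0.67.

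The 3 MYT1 family genes were also set against all 14 marker lists, an analysis added after the data were seen. Of 126 relations 16 had an unadjusted p under 0.05 and 3 passed by r (adjusted p = 0.0425 for each), all for Myt1l in Str. By rho 2 passed, those of Myt1l with the striatal projection neuron list in Str (adjusted p = 0.0146) and with the mature oligodendrocyte list in PFC (adjusted p = 0.0423). The PFC relation had rho = 0.83 (exact p = 0.000671) and r = 0.72 (n = 11, exact p = 0.0316, adjusted p = 0.323), with r = 0.87 without heterozygote 5 and wild type 1 (exact p = 0.00417). The hippocampal neuron and choroid plexus relations in Str did not pass by rho (adjusted p = 0.0678 and 0.076). Myt1l rose with the striatal projection neuron list (r = 0.90, exact p = 0.000789, rho = 0.94, exact p = 0.000116, n = 12) and fell with the hippocampal neuron list (r = -0.87, exact p = 0.00101, rho = -0.83, exact p = 0.00183, n = 12) and the choroid plexus list (r = -0.81, exact p = 0.000509, rho = -0.81, exact p = 0.00365, n = 12). Str heterozygotes 1 and 6 had the highest projection neuron scores of the heterozygotes (12.70 and 12.84) and heterozygotes 2 and 4 the lowest (12.26 and 12.25). Without the 2 libraries farthest from the median of each list r was 0.85, -0.87 and -0.77 (exact p = 0.00909, 0.00618 and 0.0281). None of the 3 passed without the 31-67M libraries (r = 0.896, -0.875 and -0.814, adjusted p = 0.0802, 0.144 and 0.203), with equal library totals (r = 0.877, -0.842 and -0.796, adjusted p = 0.0768 for each) or within the codes beginning with 35 (r = 0.960, -0.836 and -0.804). The count of 3 was 0 without any single Str heterozygote or without Str wild type 1, 2 or 4, and 1 without Str wild type 5. In PFC, Myt1l had r = 0.78 with the neuron list (n = 11, exact p = 0.0154, rho = 0.79, exact p = 0.0123, adjusted p = 0.278).

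The genes whose pattern was most like each of 4 genes were found over the 34 libraries after the group means were subtracted, among 12671 genes with a mean of at least 100. For Myt1l they were Grin2b (an NMDA receptor subunit, r = 0.83), Wdr47 (0.83) and Jak1 (a cytokine receptor kinase, 0.82), with Hdac2 at 0.67. For Myt1 they were Dlk1 (a Notch ligand homologue, 0.75), Zik1 (0.68) and Cbl (a ubiquitin ligase, 0.65), for St18 Tatdn3 (0.68), Hnrnph3 (a splicing factor, 0.63) and Mrgbp (0.62), and for Rest Sspn (0.62), Rab3gap1 (0.62) and Usp29 (0.59). Myt1 and St18 had r = -0.11 with each other, and Myt1l 0.14 with Myt1 and -0.06 with St18. Libraries share depth and dissection, and no p is given.

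The partners' wider complexes were read from lists of genes. No gene of these lists passed for heterozygote against wild type in any region or in the average (limma): SIN3 complex 0 of 18, CoREST/LSD1 complex 0 of 12, NuRD complex 0 of 10, NCoR complex 0 of 5, other HDACs 0 of 9, RE1 genes 0 of 17, and Notch and Hes genes 0 of 10. The list medians lay between -0.05 and 0.06 in the 3 regions, beside -0.0038 to -0.0014 for all genes. In the SIN3 list Ogt, the O-GlcNAc transferase, had the smallest p in each region, with 0.08 in PFC, 0.10 in Hip and 0.14 in Str and 0.10 in the average (SE 0.02, adjusted p = 0.065, limma). In PFC the genes with the smallest p in other lists included Hmg20b (0.14), Chd3 (-0.13), Hdac11 (-0.10), Vgf (0.10) and Notch2 (0.16). In Hip they were Phf21a (0.31), Mta2 (0.11), Ncor1 (0.10), Hdac5 (-0.23), Cplx1 (-0.15, adjusted p = 0.238) and Notch1 (0.28). In Str they were Hmg20b (0.21), Chd3 (-0.06), Tbl1xr1 (-0.20), Hdac10 (0.24), Scg3 (0.12) and Hes1 (0.19).

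Between wild-type regions the RE1 genes, neuronal genes that REST is known to bind, were mostly higher in PFC. Of 17, 14 were higher and 0 lower in PFC against Hip and 13 higher and 1 lower in PFC against Str, where 22.7% and 27.7% of all genes were higher. The list medians were 0.30 and 0.46, beside -0.01 for all genes. In Hip against Str 10 were higher and 5 lower, where 23.6% and 23.9% of all genes were. Snap25 averaged 89010 normalized counts in PFC, 55681 in Hip and 37982 in Str, Syn1 18797, 14309 and 7883, and Bdnf 1065, 1277 and 275.8. Rest itself was lowest in PFC. The neuron list moved with these genes, 9 of its 12 genes being higher in PFC against Hip and 9 in PFC against Str. The lists share Snap25, Syp, Stmn2 and Tubb3. The part of the neuron content in this result was not tested.

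The CoREST/LSD1 list had 1 gene higher and 7 lower in PFC against Hip (22.7% of all genes were higher and 23.6% lower), 5 higher and 3 lower in PFC against Str (27.7% and 29%), and 6 higher and 1 lower in Hip against Str (23.6% and 23.9%). The counts of the lists that follow stand against the same shares. Rcor2, the neural homologue of Rcor1, averaged 341.4 normalized counts in PFC, 304.1 in Hip and 133.7 in Str. Gse1 averaged 2350, 3343 and 1625, Ctbp2 405.0, 742.6 and 611.4, and Zmym3 3413, 4260 and 5075. The SIN3 list was split, with 4 higher and 4 lower, 5 higher and 6 lower, and 6 higher and 3 lower in the 3 comparisons, and Sap30 averaged 122.7, 154.9 and 83.7. Of the 10 NuRD genes 1 was higher and 4 lower in PFC against Hip, 6 higher and 2 lower in PFC against Str, and 6 higher and 1 lower in Hip against Str. The largest difference was that of Chd5 (9622, 6515 and 5751) in PFC against Str and of Chd3 (16390, 20852 and 14947) in Hip against Str. Among the other HDACs, Hdac9 (1436, 1216 and 926.1) and Hdac10 (348.0, 284.0 and 185.3) were higher in PFC and Hip than in Str, and Hdac11 (4051, 3623 and 5037) was lower. Of the NCoR list Ncor1 (6710, 7108 and 5209) was higher in PFC and Hip than in Str, and Tbl1x (2266, 1590 and 2763) was lower. In the Notch list Hes1 averaged 246.0, 240.6 and 108.8, Notch2 556.9, 1104 and 774.5, and Dll1 91.6, 159.3 and 239.6.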

How the data were processed

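RNA-seq libraries of prefrontal cortex, hippocampus and striatum, 34 in all, were grouped by region and genotype from their labels. The signal analysed is the deposited table of normalized counts: non-whole values for 18548 genes, scaled by the authors, whose counting and scaling are not given in the sources used here. Total RNA was prepared with the TruSeq RNA Sample Prep Kit v2, per the labels' protocols. The submitters' processing notes name Salmon 1.1.0, DESeq2 1.26.0, R 3.6.2 and GRCm38 without saying what each did. Whole reads could not be recovered, so no count test was run.

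Values were tested as log2(value + 1), for genes with a mean of at least 10, with limma 3.58.1 (R 4.3.3, trend and robust options) and Benjamini-Hochberg adjustment over all genes at 0.05. Fold changes on this scale understate those of low genes. The average over regions used the column code with genotype as a random block (statmod 1.5.0), and regions were compared in 18 wild-type libraries. Relations and ratios used exact permutation tests (Python 3.11.15, numpy 2.4.6, pandas 2.3.3, scipy 1.17.1), and plots matplotlib 3.10.9. The limma scripts were tested on simulated data. Of the gene IDs, 18533 matched the GENCODE M21 annotation and 15 did not.

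The genes, lists and tests were chosen with earlier results of these data known. All 10 genes were named in every comparison. From each pathway list the gene with the smallest p in each genotype comparison was named where none passed, and for wild-type regions those with the largest changes past the threshold. Some genes this rule names are not reported here. Genes of like pattern were sought among those with a mean of at least 100. Replicate numbers were not used to pair the samples in the main tests. Deviations of libraries with the same number in both genotypes correlated at -0.1 to 0.1. Wild-type libraries with the same code in PFC and Hip correlated at only -0.03 to 0.12, so this check cannot tell whether the numbers mark pairs. Alternatives were another pseudocount, no filter, equal library totals, no trend or robust option, the replicate block, codes beginning with 35 only, marker lists as covariates, and leaving out code 31-67M or each library.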

Additional observations from a re-analysis of the deposited data

Results flagged for a closer look

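In 8 of 78 sets of values, each 1 gene or marker list in 1 group, 1 library stood apart from the others of its group by Dixon's criterion, which chance meets in about 1 in 20 sets. Myt1 had 647.6 normalized counts in Hip heterozygote 2, against 473.4 to 505.4 in the other Hip heterozygotes. In the same library the differentiating oligodendrocyte list had a mean log2 of 9.2, against 9.41 to 9.48. Sin3b had 1615.4 in PFC heterozygote 5, against 1836.1 to 1901.1. Hdac1 had 806.5 in Hip heterozygote 5, against 969.8 to 1017.4. Hdac2 had 2355.9 in Hip wild type 3, against 2027.8 to 2145.8. The mature oligodendrocyte list had a mean log2 of 10.46 in PFC wild type 1, against 10.98 to 11.09. The precursor list had 9.22 in PFC heterozygote 3, against 9.29 to 9.31, and 9.84 in Str heterozygote 1, against 9.91 to 9.95.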

How the results depend on the processing

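The count of 0 called genes for heterozygote against wild type held in every alternative run, the replicate block included, with a smallest adjusted p of 0.322 within a region and 0.308 in the average, for Myt1l without code 31-67M (limma). Of 730 alternative values within regions 62 changed sign, in 17 of 30 results, none of them called and none larger than 0.179 in size. The cause of each change was not tested. The sign changed for Rcor1 in PFC (0.00965 with the replicate block and without code 31-67M). It changed with the cortical neuron list as covariate for Myt1l (-0.000806), Sin3a (0.00334) and Hdac2 (-0.000334) in PFC, and with the thalamus list for Myt1 in PFC (-0.0208). Rest in Hip became 0.0288 with the replicate block, 0.0582 within codes beginning with 35, 0.0159, 0.0992 and 0.0143 with the neuron, cortical neuron and thalamus lists, and 0.0167 without code 31-67M. With the neuron list St18 (0.0161) and Hdac2 (0.00405) in Hip and Rcor1 (-0.00421) and Rest (-0.00428) in Str changed sign. In Str so did Myt1l within codes beginning with 35 (-0.0117), Hdac2 with the mature (0.0107) and precursor (0.00787) lists and Rest with the mature list (-0.0347). With the differentiating list Rest in Hip was 0.0537 and Sin3b in Str 0.00514. Sin3b in the average was 0.00261 within codes beginning with 35.

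Leaving out 1 library gave, in PFC, Myt1l -0.00543 to 0.0983, Myt1 -0.131 to 0.137, St18 -0.299 to 0.00557, Sin3a -0.0816 to 0.0239, Hdac1 -0.00969 to 0.0877, Hdac2 -0.0168 to 0.0259 and Rcor1 -0.0257 to 0.0103. In Hip it gave Myt1 -0.00789 to 0.108, St18 -0.186 to 0.03, Hdac2 -0.0333 to 0.0136 and Rest -0.0772 to 0.0288. In Str it gave Sin3b -0.0243 to 0.0119, Hdac2 -0.0356 to 0.0119, Rcor1 -0.0225 to 0.0272, Kdm1a -0.0121 to 0.0621 and Rest -0.0125 to 0.0904.

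Between wild-type regions 667 of 720 alternative values kept their sign and call, 27 lost and 15 gained a call, and 11 changed sign. With equal library totals 4 genes were called for Hip against Str, and Rcor1 (-0.0952) and Kdm1a (-0.0266) changed sign for PFC against Str. Within codes beginning with 35 Sin3a was 0.0127 for PFC against Hip and Hdac2 0.0204 for Hip against Str. Leaving out 1 library gave -0.0854 to 0.014 for that Sin3a value and -0.0414 to 0.00893 for that Hdac2 value. The replicate block gave 5, 6 and 6 called genes. The corepressor relations that passed numbered 0 to 2 when 1 library was left out. Those to marker lists numbered 0 to 4, and 0 with equal totals, within codes beginning with 35 and without code 31-67M.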
